A study of Mus musculus with 14 samples.

Results

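The Wnt gene family codes for secreted lipid-modified proteins that signal between neighbouring cells, and its ligands, receptors, antagonists and nuclear factors were followed here by RNA-seq in mouse mammary gland epithelial cells. Members were taken from the 2 deposited expression tables by gene symbol alone, namely every Wnt, Fzd, Sfrp and Dkk gene, the co-receptors Lrp5 and Lrp6, Axin2, and the TCF/LEF factors Lef1, Tcf7, Tcf7l1 and Tcf7l2, which gave 44 of the 23284 genes listed. Of these, 20 reached 1 FPKM in any of the 14 libraries and were followed. EpH4 cells are a line derived from mouse mammary gland epithelium, and EpRas cells are the same line transformed with H-Ras carrying the G12V change. Both were left untreated or treated with 1 ng/ml TGF-β3 for 48 h, with 2 libraries for each of these 4 untransfected groups. EpH4 cells were grown in 10% fetal bovine serum and EpRas cells in 4%, so serum and transformation cannot be told apart in any comparison between the lines. A further 6 libraries came from EpRas cells that received either the control siRNA, siNC, or siRNAs that target the ETS factors Etv4 and Etv5, used as 2 pairs (pair 1 is siEtv4_1 with siEtv5_1, pair 2 is siEtv4_2 with siEtv5_2), each untreated or treated with TGF-β3 and with 1 library a condition. By the study's account the libraries of an untransfected group are biological replicates, and p-values measure the spread between them.

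A Wnt ligand is made lipid-modified and secretion-competent in the producing cell and then binds a Frizzled receptor. When the ligand also engages Lrp5 or Lrp6, the complex that degrades β-catenin is switched off, and β-catenin enters the nucleus and acts on target genes through Tcf7, Lef1, Tcf7l1 and Tcf7l2. Axin2 and Lef1 are themselves well-known targets of this branch. Other ligands, such as Wnt5a and Wnt11, are best known for signalling without β-catenin, through calcium or through the planar polarity proteins. Secreted Sfrp proteins bind the ligands and Dkk proteins bind Lrp5 and Lrp6, and both limit signalling. In the mammary gland this pathway is needed for the embryonic bud and takes part in ductal branching and in the upkeep of progenitor cells.

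Levels are given as FPKM, fragment counts scaled for exon length and for the size of the library. The 2 tables come from separate Cuffdiff runs on samples that the labels describe as independently processed, and each test therefore stays inside 1 table. Sequencing depth is not stated. It was read in relative terms from the steps between low FPKM values, and reads per unit of FPKM lay between 0.609 and 1.36 times those of the first untreated EpH4 library in the untransfected table. A gene at 5 FPKM corresponded to a median of 44.5 to 99.0 reads there and of 84.8 to 148 reads in the siRNA table. Keratins 8 and 18 were abundant in every library and 13 of 14 epithelial marker genes reached 1 FPKM, whereas Krt5 was at most 0.0856 FPKM. Of 10 haematopoietic markers 2 reached 1 FPKM, the macrophage genes Cd68, at 0.293 to 7.13 FPKM over the 14 libraries, and Csf1r, at 0.103 to 6.23 FPKM, while the pan-leukocyte marker Ptprc was at most 0.0267 FPKM. Of 8 endothelial markers 1 did, Cdh5, at 1.80 FPKM in TGF-β-treated siNC cells and at most 0.461 FPKM in the others. In a bulk sample, fewer expressing cells and less RNA per cell cannot be told apart.

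The families were used very unevenly. Of 19 Wnt genes 7 were followed (Wnt5a, Wnt5b, Wnt7a, Wnt7b, Wnt9a, Wnt10a and Wnt11), of 10 Frizzled genes 7 (Fzd1, Fzd2, Fzd4, Fzd5, Fzd6, Fzd7 and Fzd8), of 4 Sfrp genes only Sfrp1, and of 4 Dkk genes none (0). Both co-receptors and 3 of the 4 TCF/LEF factors were followed. Axin2 and Lef1, the targets named above, were at most 0.116 and 0.0866 FPKM in any library and were listed at 0 in 10 and 11 of the 14. Among the members that did not reach 1 FPKM, 7 were listed at 0 in every library, namely Dkk1, Dkk4, Fzd10, Sfrp4, Wnt16, Wnt2 and Wnt3a. The nearest below the minimum was Wnt1 at 0.824 FPKM and the nearest above it was Wnt5b at 1.16 FPKM, reached in 1 untreated EpRas library while the other was at 0.0693 FPKM. All 20 followed members entered the tests in both tables.

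Wnt7b was the most highly expressed member in all 14 libraries, with a lowest value of 149, a median of 206 and a highest value of 272 FPKM. Lrp5, with a median of 46.8 FPKM (lowest 37.0, highest 63.7), and Wnt7a, with a median of 38.1 FPKM (lowest 31.0, highest 62.1), held the next places in every library and changed places between libraries, so their order was not larger than the spread. Fzd2 and Fzd6 were the main receptors throughout. Among the members detected in every library, the widest ranges in ratio were those of Wnt11, from 0.0520 to 39.5 FPKM, and Sfrp1, from 0.209 to 10.7 FPKM, while Lrp6 stayed between 3.45 and 7.23 FPKM.

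**Figure D1:**
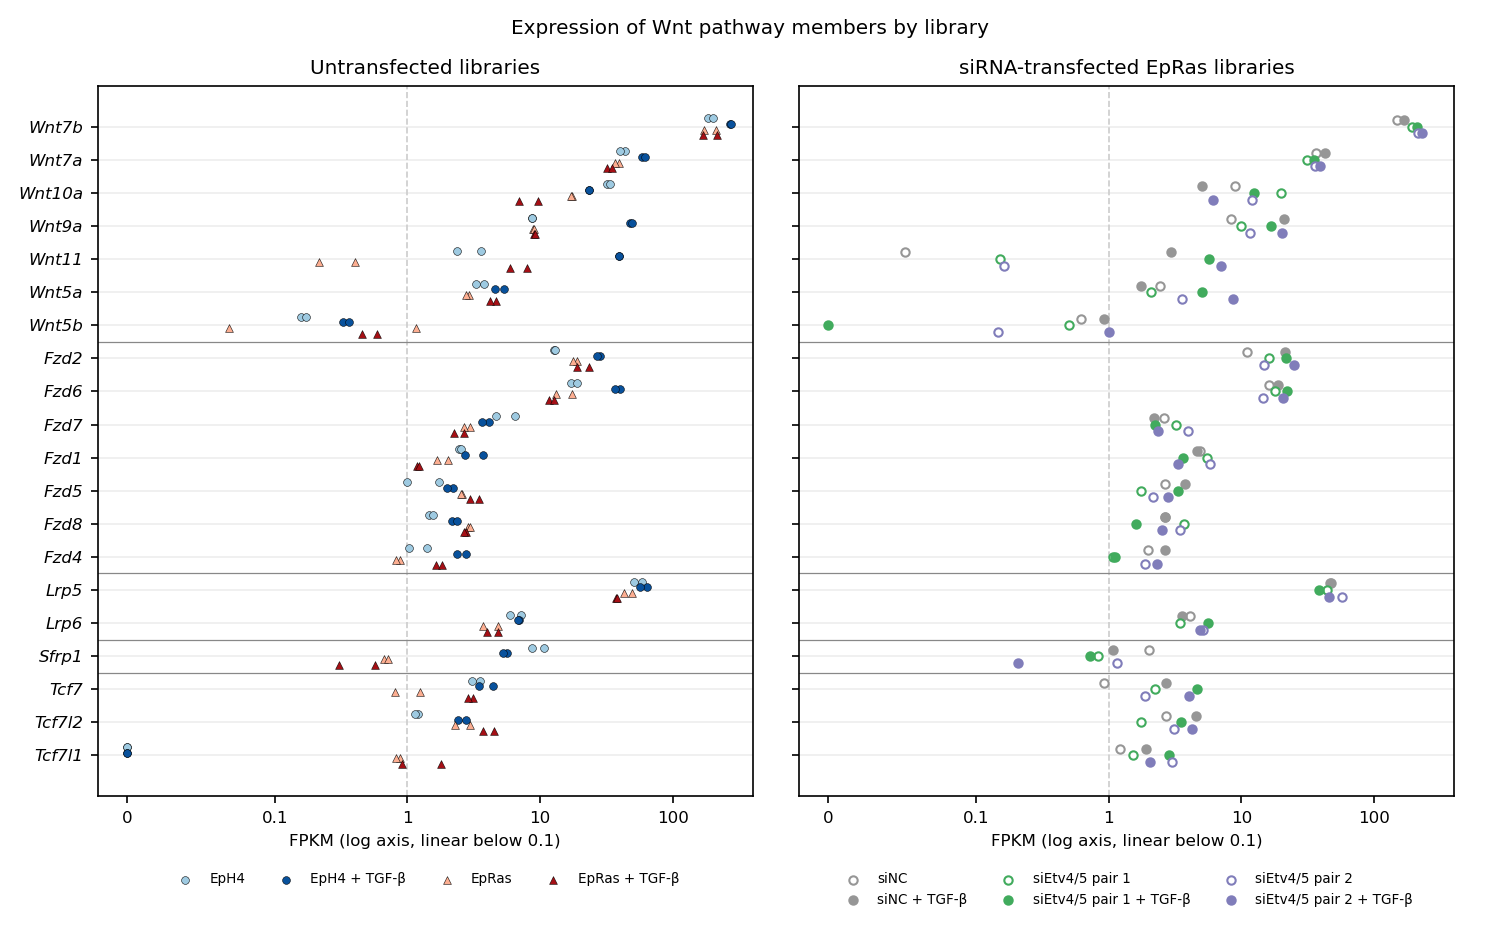
FPKM of the 20 followed members in each library (log axis, linear below 0.1 FPKM), grouped from top to bottom into ligands, Frizzled receptors, co-receptors, Sfrp1 and TCF factors. Each point is 1 library, the left panel shows the 8 untransfected and the right panel the 6 siRNA-transfected libraries, and the dashed line is the 1 FPKM minimum; Wnt7b lies above all others in every library, and Tcf7l1 is listed at 0 in the 4 EpH4 libraries.

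The total of Wnt ligand transcripts was similar in 3 of the 4 untransfected groups and higher in EpH4 cells treated with TGF-β. It summed to 273 and 292 FPKM in untreated EpH4 cells, 444 and 451 with TGF-β, 282 and 239 in untreated EpRas cells and 229.7 and 282 with TGF-β. Wnt7b alone made up 60.2 to 69.0% of the sum in EpH4 and 72.1 to 76.1% in EpRas libraries, and Wnt7a, its closest relative in the family, 13.3 to 16.1% and 12.3 to 15.4%. The share of Wnt11 ran from 0.869 to 8.78% in EpH4 and from 0.0767 to 2.83% in EpRas libraries, and that of Wnt9a from 2.98 to 10.9% and from 3.15 to 3.94%. Frizzled transcripts summed to 41.1 and 46.0 FPKM in untreated EpH4 cells and 83.3 and 76.9 with TGF-β, against 47.3 and 41.9 and 42.0 and 47.9 in EpRas cells. Fzd6 was the leading receptor in the 4 EpH4 libraries and Fzd2 in the 4 untransfected EpRas libraries. Among the siRNA-transfected EpRas libraries, Fzd6 led in the untreated siNC library and in both pair 1 libraries, and Fzd2 in the others.

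**Figure D2:**
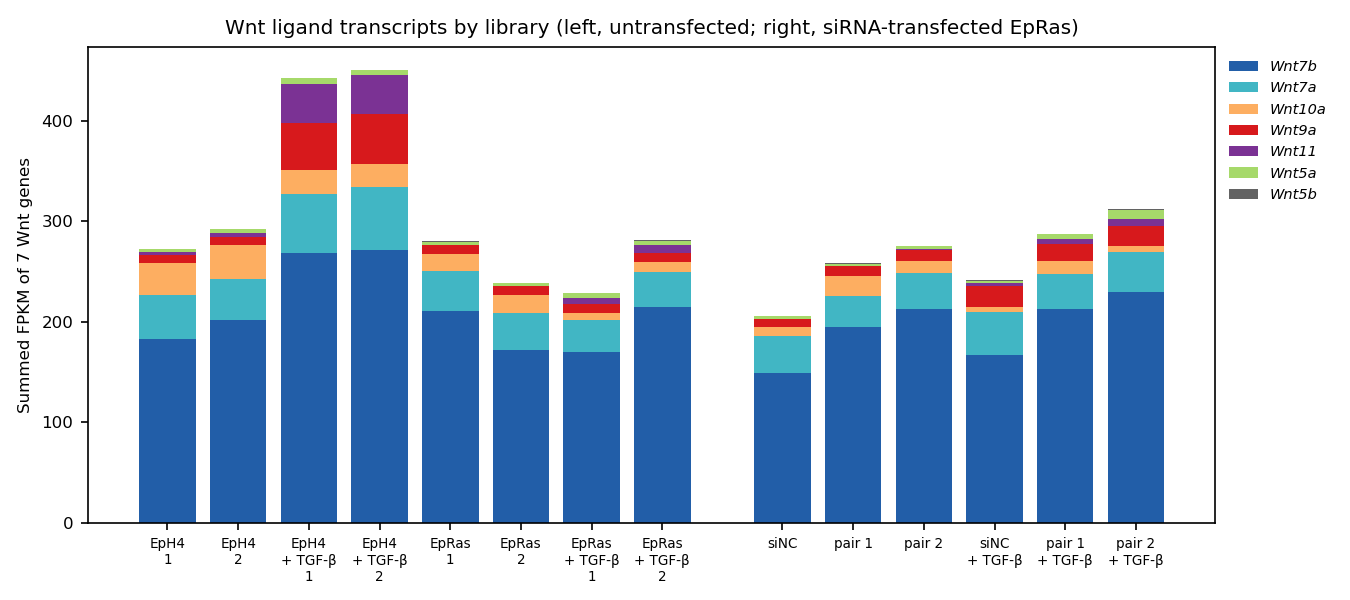
Summed FPKM of the 7 followed Wnt ligands in each library, stacked by gene, with the 8 untransfected libraries on the left and the 6 siRNA-transfected EpRas libraries on the right (pair 1 and pair 2, siRNAs against Etv4 and Etv5). Wnt7b makes up most of every bar, and the tallest bars are those of EpH4 cells with TGF-β, where the segments of Wnt9a and Wnt11 are wide.

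To see which members respond to TGF-β in the parental line, treated and untreated EpH4 cells were compared. Wnt11 and Wnt9a rose most, Fzd2, Fzd6, Fzd4 and Tcf7l2 rose less, each to a little over 2 times its untreated mean, and Sfrp1 fell. Of the 20 members 6 rose and 1 fell, beside 6.05% and 2.80% of the 11683 genes tested (limma on log2(FPKM + 1), Benjamini-Hochberg adjusted p under 0.05 over all genes). The median log2 difference of the members was 0.39 against -0.00797 over all genes.

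Wnt11 (chr7:98835112-98855195, plus strand, mm10), known for its part in cell movement and organ shaping, was at 2.37 and 3.59 FPKM in the untreated and at 38.9 and 39.5 FPKM in the treated EpH4 libraries, which correspond to 36 and 74 against 427 and 645 reads. The groups lay far apart and the mean level was 13.2-fold higher with TGF-β (log2 difference 3.35 ± 0.21, adjusted p = 0.000213). Wnt9a (chr11:59306928-59333552, plus strand), a ligand with known roles in joint and skeletal development, was at 8.63 and 8.70 FPKM untreated and at 47.5 and 49.1 FPKM treated, a 5.57-fold higher mean (log2 difference 2.35 ± 0.14, adjusted p = 0.000183). Both libraries of each group were close to each other for this gene, and its neighbour on chromosome 11, Wnt3a, was listed at 0 in every library. Both calls held when any 1 of the 8 libraries was left out, with adjusted p at most 0.00838 for Wnt11 and 0.00704 for Wnt9a.

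Because Wnt11 and Wnt9a moved together in EpH4 cells, the sequences around their start sites are shown from RefSeq on GRCm38.p6, the assembly that mm10 names, 300 bases each, of which 250 lie before the start and 50 from it on. Wnt11 has 2 annotated starts, and Wnt9a, which was chosen after its values were seen, has 1. All 3 windows lie on the plus strand, at chr7:98834862-98835161, chr7:98838595-98838894 and chr11:59306680-59306979. Capitals mark the matches to the motifs searched on both strands, namely the TCF/LEF core CTTTGA, the ETS core CGGAAG and the Smad element CAGACA, which do not overlap each other in these windows.
Wnt11 upstream start: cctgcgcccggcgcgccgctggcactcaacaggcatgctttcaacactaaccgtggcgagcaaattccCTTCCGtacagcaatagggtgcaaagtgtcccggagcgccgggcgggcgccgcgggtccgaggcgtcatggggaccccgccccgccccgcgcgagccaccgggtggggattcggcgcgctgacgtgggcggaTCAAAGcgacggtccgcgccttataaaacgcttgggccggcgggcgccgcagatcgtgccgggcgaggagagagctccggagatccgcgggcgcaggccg
Wnt11 downstream start: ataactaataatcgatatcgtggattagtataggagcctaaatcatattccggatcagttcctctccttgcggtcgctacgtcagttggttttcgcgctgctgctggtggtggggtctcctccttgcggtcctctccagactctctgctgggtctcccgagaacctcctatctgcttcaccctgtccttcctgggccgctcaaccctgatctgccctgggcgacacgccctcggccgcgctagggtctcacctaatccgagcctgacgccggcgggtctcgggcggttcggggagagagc
Wnt9a start: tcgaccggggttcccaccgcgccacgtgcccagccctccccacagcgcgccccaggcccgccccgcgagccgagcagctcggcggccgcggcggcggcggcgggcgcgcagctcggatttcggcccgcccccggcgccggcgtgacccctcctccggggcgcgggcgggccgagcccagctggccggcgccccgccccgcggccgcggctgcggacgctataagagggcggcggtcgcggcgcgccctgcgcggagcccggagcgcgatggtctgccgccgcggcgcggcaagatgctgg
The upstream window of Wnt11 holds 1 TCF/LEF match (minus strand, from base 201) and 1 ETS match (minus strand, from base 69), and the other windows hold none of the 3 motifs. GC content was 71.3% and 59.3% in the Wnt11 windows and 83.3% in that of Wnt9a, against a median of 52.7% over all 32851 windows of this length. Over all windows, 5257 of 32851 hold the TCF/LEF core, 16.9% the ETS core and 21.0% the Smad element. RefSeq windows were found for 11 of the 20 followed members, 16 windows in all, of which 3 hold the TCF/LEF core (Fzd1, Wnt11 and Wnt5b), 5 the ETS core (Fzd5, Fzd7, Tcf7, Wnt11 and Wnt5b) and 1 the Smad element (Wnt7a). A match of letters is a description and not a binding site.

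Among the receptors, Fzd2 was at 12.8 and 12.9 FPKM without and 28.2 and 26.6 FPKM with TGF-β (log2 difference 1.03 ± 0.16, adjusted p = 0.00828). Fzd6, a receptor known for its part in planar polarity of the skin, went from 17.1 and 19.0 to 39.8 and 36.7 FPKM (log2 difference 1.05 ± 0.18, adjusted p = 0.0125). Fzd4, a receptor known for retinal vessel development, went from 1.03 and 1.41 to 2.78 and 2.37 FPKM (log2 difference 0.69 ± 0.16, adjusted p = 0.0393). The groups did not overlap for any of these receptors. Tcf7l2, a TCF factor active in gut and liver, was at 1.21 and 1.13 FPKM untreated and 2.78 and 2.41 FPKM treated (log2 difference 0.73 ± 0.17, adjusted p = 0.0402). Sfrp1, a secreted protein that binds Wnt ligands, fell from 10.7 and 8.76 to 5.66 and 5.21 FPKM (log2 difference -0.73 ± 0.17, adjusted p = 0.0398), that is from 262 and 291 to 100 and 137 reads. The calls of Fzd2, Fzd6, Fzd4, Tcf7l2 and Sfrp1 were each lost when any 1 of the 4 EpH4 libraries was left out, with adjusted p up to 0.0869, 0.118, 0.249, 0.252 and 0.22, and those of Fzd4, Tcf7l2 and Sfrp1 also without either untreated EpRas library.

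The most abundant ligands did not pass the test in EpH4 cells. Wnt7b was at 183 and 202 FPKM untreated and 269 and 272 FPKM with TGF-β (log2 difference 0.49 ± 0.18, adjusted p = 0.161), and Wnt7a at 43.9 and 40.3 FPKM untreated and 58.8 and 62.1 FPKM treated (log2 difference 0.51 ± 0.15, adjusted p = 0.0798). In both, the treated libraries lay above the untreated ones. Wnt10a, a ligand needed for skin appendages and teeth, lay lower with TGF-β, at 31.7 and 33.9 against 23.3 and 23.5 FPKM (log2 difference -0.47 ± 0.18, adjusted p = 0.167). Marker genes of fibroblasts moved with the treatment, their summed level being 22.7 to 26.8 FPKM in untreated and 222 to 247 FPKM in treated EpH4 cells, most of it from the collagen gene Col1a1 (18.7 and 21.2 against 224 and 200.04 FPKM), and of 10 such markers 4 were tested and 4 rose. The macrophage marker Csf1r went from 0.185 and 0.103 to 6.23 and 5.74 FPKM, while Ptprc stayed near 0 as given above. The summed level of the epithelial markers was also higher, at 6189 to 7651 FPKM in untreated and 10586 to 11252 FPKM in treated EpH4 cells. Of 13 tested epithelial markers 2 were called higher, Krt14 and Cdh1, and 0 lower. Of 4 mesenchymal markers 2 were called higher, Acta2 and Fn1, and 0 lower. The fibroblast markers Lum, Thy1, Dpt and Fap were listed at 0 in every library. The part of all these markers, and of the cells they mark, in the results on Wnt genes was not tested.

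**Figure D3:**
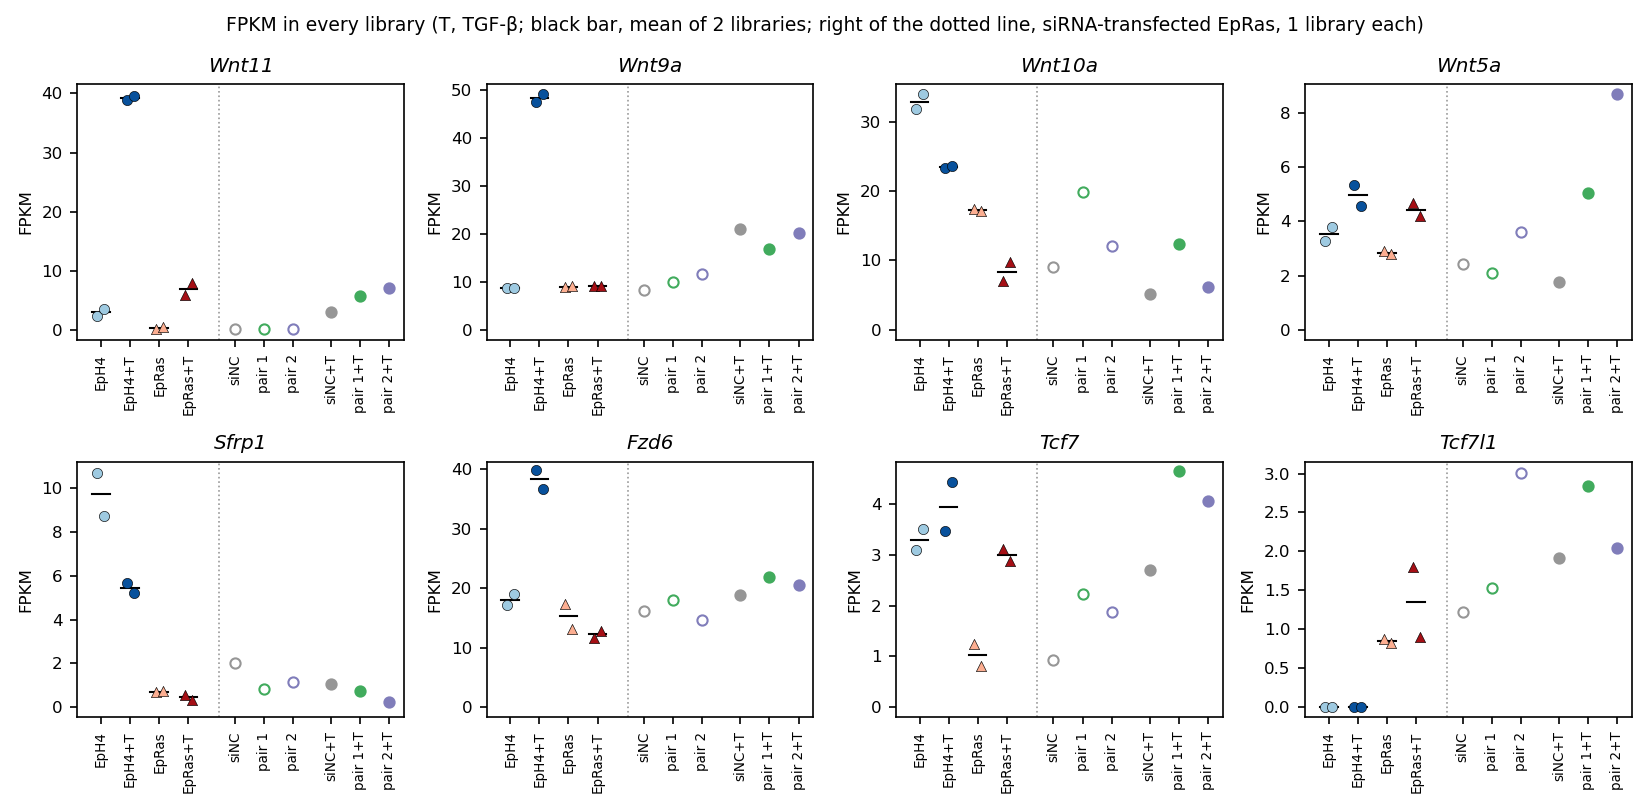
FPKM of 8 members in every library, with the 4 untransfected groups left of the dotted line (2 libraries each, black bar at the mean) and the siRNA-transfected EpRas libraries right of it (1 each, open untreated, filled with TGF-β; T, TGF-β). The EpH4 libraries with TGF-β stand above all others for Wnt11 and Wnt9a, the untreated EpH4 libraries for Sfrp1, and the pair 2 library with TGF-β is the highest for Wnt5a at 8.70 FPKM.

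In EpRas cells, the line that TGF-β drives further into epithelial-mesenchymal transition, Wnt11 rose again, Tcf7 rose and Wnt10a fell. These were 2 members higher and 1 lower of 20, beside 1.64% and 1.79% of all genes tested. Wnt11 went from 0.216 and 0.407 FPKM (2 and 7 reads) to 5.91 and 7.99 FPKM (77 and 81 reads), with a log2 difference of 2.59 ± 0.21 (adjusted p = 0.00124). Per unit depth the summed reads were 20.1-fold (exact 95% interval 10.3 to 44.7) higher, an interval that covers counting error only. Tcf7, the TCF factor first known from T cells, was at 1.24 and 0.812 FPKM (9 and 11 reads) untreated and 3.12 and 2.88 FPKM (32 and 23 reads) treated, so that its groups did not overlap (log2 difference 0.99 ± 0.18, adjusted p = 0.0295). Wnt10a was at 17.5 and 17.2 FPKM untreated and 6.99 and 9.72 FPKM treated (log2 difference -0.98 ± 0.18, adjusted p = 0.0291). Fzd4 was at 0.882 and 0.819 FPKM untreated and 1.65 and 1.83 FPKM treated, with no overlap and no limma call (log2 difference 0.57 ± 0.16, adjusted p = 0.128). The call of Wnt11 held when any 1 of the 8 libraries was left out (adjusted p at most 0.0219), that of Tcf7 was lost without any 1 of them (up to 0.165), and that of Wnt10a held only without the second TGF-β-treated EpRas library (up to 0.176 otherwise). In a fit on the 4 EpRas libraries alone 0 members were called, Wnt11 having an adjusted p of 0.0878. In the same comparison 2 of 13 epithelial markers fell, Krt7 (log2 difference -1.10 ± 0.22, adjusted p = 0.0402) and Krt14 (log2 difference -0.78 ± 0.16, adjusted p = 0.0474), and of 4 mesenchymal markers 1 rose, the fibronectin gene Fn1 (log2 difference 1.58 ± 0.15, adjusted p = 0.00244), while 0 of 4 fibroblast markers were called. The part of these markers in the results on Wnt genes was not tested.

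Wnt9a, which rose in EpH4 cells, was at 8.88 and 9.06 FPKM in untreated and 9.04 and 9.09 FPKM in treated EpRas cells (log2 difference 0.01 ± 0.14, adjusted p = 0.982). The difference between the effects of TGF-β in the lines was tested directly. It was called for 1 member, Wnt9a, with a difference of -2.34 ± 0.19 log2 units, EpRas minus EpH4 (adjusted p = 0.00502), and for 0 members in the other direction, beside 0.753% and 0.171% of all genes. At an unadjusted p under 0.05 the count was 7 of the 20 members and 11.3% of all genes. Fzd6 had a difference of -1.33 ± 0.25 (adjusted p = 0.0716), and in EpRas cells it was at 17.4 and 13.2 FPKM untreated and 11.7 and 12.8 FPKM treated. Fzd2, called in EpH4 cells, was at 19.0 and 17.7 FPKM in untreated and 18.9 and 23.3 FPKM in treated EpRas cells, which overlapped, and its difference in effect was -0.85 ± 0.23 (adjusted p = 0.205). In the siRNA libraries of EpRas cells both receptors were higher with TGF-β under siNC, pair 1 and pair 2. The ratios there were 1.95, 1.36 and 1.69 for Fzd2 and 1.17, 1.22 and 1.41 for Fzd6, with 1 library a condition. Wnt11 differed between the lines by -0.76 ± 0.30 in its response (adjusted p = 0.389). The call of Wnt9a was lost without either TGF-β-treated EpH4 library, with adjusted p of 0.0623 and 0.0594 and a difference of -2.36 and -2.31.

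**Figure D4:**
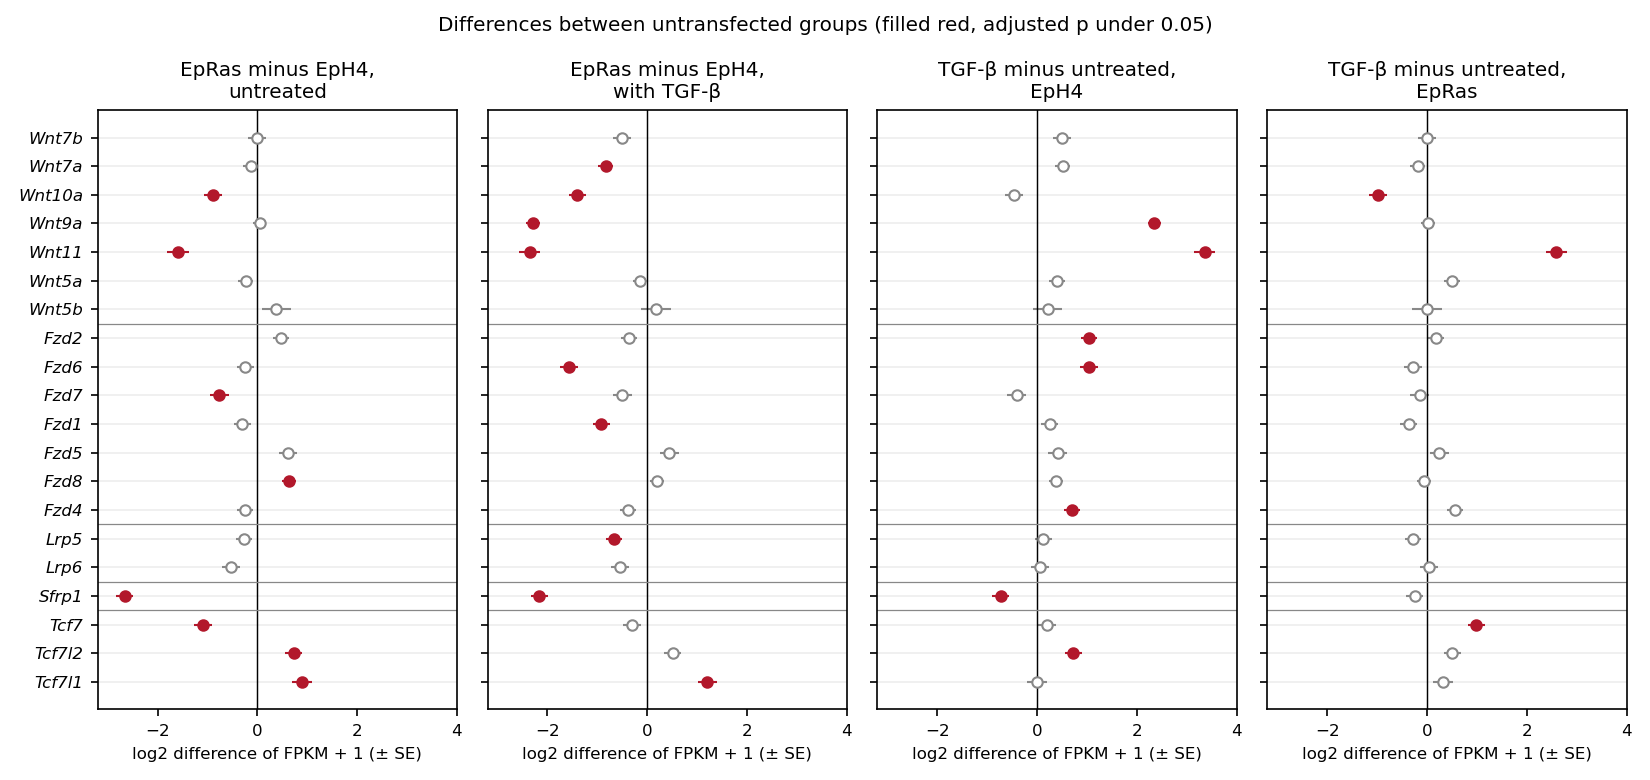
Log2 differences of FPKM + 1 with their standard errors for the 20 members in the 4 comparisons of untransfected cells (2 libraries a group), with members at an adjusted p under 0.05 filled in red. Sfrp1 lies furthest to the left in the comparison of untreated lines at -2.66, and Wnt11 furthest to the right in both responses to TGF-β, at 3.35 in EpH4 and 2.59 in EpRas cells.

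Between the untreated lines, the antagonist Sfrp1, the ligands Wnt11 and Wnt10a, the receptor Fzd7 and Tcf7 were lower in EpRas cells, and Tcf7l1, Tcf7l2 and Fzd8 were higher. These were 5 members lower and 3 higher of 20, beside 9.45% and 8.37% of all genes tested, and the median log2 difference of the members was -0.24. These counts are a description, since in the untransfected libraries Tcf7l1 reached 1 FPKM in 1 EpRas library only, and Sfrp1 in EpH4 libraries only, so that each passed the minimum through the line where it was high. Sfrp1 (chr8:23411502-23449632, plus strand, with no promoter window matched) was at 10.7 and 8.76 FPKM in EpH4 and at 0.670 and 0.721 FPKM in EpRas cells (10 and 20 reads), which were the largest difference among the members in this comparison (log2 difference -2.66 ± 0.17, adjusted p = 9.94e-05). Sfrp1 is a gene often silenced in breast cancer, and here its 4 untransfected EpRas libraries lay below 1 FPKM. In the 6 siRNA libraries of EpRas cells Sfrp1 lay between 0.209 and 2.001 FPKM, above 1 FPKM in 3 of them. Wnt11 had a 9.57-fold lower mean in EpRas cells (log2 difference -1.59 ± 0.21, adjusted p = 0.00274), on the low read numbers given above, and Wnt10a a 1.90-fold lower one (log2 difference -0.88 ± 0.18, adjusted p = 0.0141). Fzd7, a receptor linked to mammary progenitor cells, was at 4.62 and 6.46 FPKM in EpH4 and 2.97 and 2.67 FPKM in EpRas cells (log2 difference -0.76 ± 0.18, adjusted p = 0.0286). Fzd8 was at 1.46 and 1.56 FPKM in EpH4 and 2.84 and 2.96 FPKM in EpRas cells (log2 difference 0.64 ± 0.14, adjusted p = 0.02), with no overlap. Of 13 tested epithelial markers 7 were also lower and 1, Krt19, higher in untreated EpRas cells, their summed level being 6189 to 7651 FPKM in EpH4 and 4504 to 5706 FPKM in EpRas cells. The mesenchymal markers Vim (log2 difference 9.13), Cdh2 (4.91) and Acta2 (0.76) were called higher. Of the fibroblast markers, Pdgfrb (2.14) and Pdgfra (1.03) were called higher, and Col1a1 (-2.96) and Col1a2 (-1.21) lower. Krt19 and Cdh2 passed the minimum only through EpRas cells, where they were high, so their calls are a description. The part of these markers in the results on Wnt genes was not tested.

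The TCF factors had different shares in the lines. In EpH4 cells Tcf7 made up 55.5 to 75.6% of the summed TCF/LEF level and Tcf7l2 24.4 to 44.5%. In untransfected EpRas cells these shares were 20.7 to 36.1% and 43.2 to 58.3%. Tcf7 was 3.23-fold lower in untreated EpRas cells (log2 difference -1.10 ± 0.18, adjusted p = 0.00623) and Tcf7l2 2.23-fold higher (log2 difference 0.73 ± 0.17, adjusted p = 0.0243). With TGF-β neither was called between the lines (Tcf7 log2 difference -0.30 ± 0.18, adjusted p = 0.268, Tcf7l2 log2 difference 0.51 ± 0.17, adjusted p = 0.0715). Tcf7l1, which mostly acts as a repressor of Wnt targets, was listed at 0 in all 4 EpH4 libraries, so no fold is given. In EpRas cells it was at 0.880 and 0.828 FPKM untreated and 1.80 and 0.904 FPKM treated, which is 8, 14, 23 and 9 reads. It was called in both comparisons of the lines, but having passed the minimum through 1 of these libraries alone, its calls support nothing on their own. It stood at 1.22 to 3.001 FPKM in the 6 siRNA libraries of EpRas cells. The calls of Wnt11 and Tcf7 held when any 1 library was left out (adjusted p at most 0.0286 and 0.0465), and that of Wnt11 was lost with the Tukey-Kramer test on FPKM. The call of Sfrp1 held too (at most 0.00263), but Sfrp1 passed the minimum through EpH4 cells alone, so this is a description and no support. The calls of Wnt10a, Fzd8, Fzd7, Tcf7l1 and Tcf7l2 were lost without at least 1 of the libraries compared (up to 0.0802, 0.0895, 0.139, 0.105 and 0.132).

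With TGF-β, 8 members were lower and 1 higher in EpRas than in EpH4 cells, beside 12.8% and 8.98% of all genes, and the median log2 difference was -0.50. The 1 higher member was Tcf7l1, and Sfrp1 was among the 8 lower ones, both with the limit given above. These comparisons share libraries with those above and the values repeat in part what the response of EpH4 cells gave. Among the ligands, the mean of Wnt11 was 5.65-fold lower (log2 difference -2.35 ± 0.21, adjusted p = 0.000348), that of Wnt9a 5.33-fold lower (log2 difference -2.29 ± 0.14, adjusted p = 5.49e-05), that of Wnt10a 2.80-fold lower (log2 difference -1.40 ± 0.18, adjusted p = 0.00159) and that of Wnt7a, at 32.1 and 34.8 FPKM in EpRas cells, 1.81-fold lower (log2 difference -0.84 ± 0.15, adjusted p = 0.00638). Sfrp1 stood at 0.571 and 0.306 FPKM in the treated EpRas libraries (12 and 5 reads), against 5.66 and 5.21 FPKM in the treated EpH4 libraries. Of the receptors, Fzd6 was 3.13-fold lower (log2 difference -1.57 ± 0.18, adjusted p = 0.000925) and Fzd1 was at 1.19 and 1.22 against 3.73 and 2.70 FPKM (log2 difference -0.92 ± 0.17, adjusted p = 0.00803). In the separately processed siRNA libraries of EpRas cells with TGF-β, Fzd1 was at 4.61 FPKM with siNC, 3.65 with pair 1 and 3.31 with pair 2. Fzd6 was at 18.9, 21.9 and 20.5 FPKM in these libraries, and neither was tested against EpH4 cells. Lrp5, the more abundant co-receptor, was at 37.0 and 37.8 FPKM in EpRas and 63.7 and 56.4 FPKM in EpH4 cells (log2 difference -0.67 ± 0.16, adjusted p = 0.0242). The call of Fzd1 was lost without the first TGF-β-treated EpH4 library (0.0682), that of Wnt7a without the second (0.0553), and that of Lrp5 without either of these or without the first TGF-β-treated EpRas library (up to 0.157). Markers of cell types differed in the same comparison. Of 13 tested epithelial markers 10 were lower and 1 higher in treated EpRas cells, with Krt14 at a log2 difference of -3.67 and Epcam at -2.42, and their sum was 10586 to 11252 FPKM in EpH4 and 2783 to 4696 FPKM in EpRas cells. Of 4 tested fibroblast markers 3 were lower, Col1a1 by a log2 difference of -6.09, and their sum was 222 to 247 against 8.42 to 11.1 FPKM. The macrophage marker Csf1r was lower as well, at -1.59, and of 4 mesenchymal markers 3 were higher, Vim at 8.68, and Acta2 lower at -1.62. Of the higher markers, Krt19 and Cdh2 passed the minimum only through EpRas cells, where they were high. The part of these markers in the results on Wnt genes was not tested.

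Wnt7b, Wnt5a, Wnt5b, Lrp6 and Fzd5 were called by limma in none of the comparisons of untransfected groups. Wnt7b was at 211 and 172 FPKM in untreated and 169.9 and 215 FPKM in treated EpRas cells, with a log2 difference of -0.01 ± 0.18 between the untreated lines (adjusted p = 0.982). Wnt5a, the ligand that restrains ductal growth in the mammary gland, was at 3.28 and 3.77 FPKM in untreated and 5.34 and 4.58 FPKM in treated EpH4 cells. In EpRas cells it was at 2.89 and 2.79 FPKM untreated and 4.66 and 4.18 FPKM treated. The treated libraries lay above the untreated ones in both lines without a limma call (log2 difference 0.40 ± 0.15, adjusted p = 0.18 in EpH4 and log2 difference 0.50 ± 0.15, adjusted p = 0.168 in EpRas cells). Lrp6 was at 5.93 and 7.23 FPKM in untreated EpH4 and 3.69 and 4.84 FPKM in untreated EpRas cells (log2 difference -0.53 ± 0.18, adjusted p = 0.0891). Fzd5, a receptor with a known role in the gut, lay between 0.989 and 3.74 FPKM over all 14 libraries (log2 difference 0.62 ± 0.19, adjusted p = 0.063 between the untreated lines). Wnt5b stayed at or below 1.16 FPKM, 0 to 26 reads in any library.

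The siRNA libraries were first checked on the targeted genes. Etv4 was at 57.4 FPKM in the untreated siNC library and at 20.2% of it with pair 1 and 48.5% with pair 2, and with TGF-β at 19.6% and 29.4%. Etv5 was at 18.3% and 14.2% untreated and at 23.2% and 22.5% with TGF-β. Both genes were thus lower with both pairs, Etv4 less so with pair 2. The siNC libraries also stand apart from untransfected EpRas cells, with Cdh1 at 61.3 FPKM against 24.4 and 27.4 FPKM and Fzd1 at 4.87 against 1.67 and 2.01 FPKM, values from separately processed tables that were not tested.

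These libraries gave a separate view of TGF-β in EpRas cells. Over the 3 siRNA conditions Wnt11 and Tcf7 were higher with TGF-β, and 0 members were lower, that is 2 of 20 beside 1.29% of the 11509 genes tested that were higher and 0.773% that were lower (limma with a term for knockdown and 1 for TGF-β). Here libraries of different siRNAs stand in for replicates, and Wnt11 passed the minimum in this table only through the treated libraries, where it was high, so its call is a description. Wnt11 was at 0.0520 FPKM in the siNC library, 0.153 with pair 1 and 0.164 with pair 2 untreated, and at 2.93 FPKM in the siNC library, 5.70 with pair 1 and 7.07 with pair 2 with TGF-β, that is 1, 4 and 4 against 98, 151 and 168 reads (log2 difference 2.41 ± 0.21, adjusted p = 0.0084). The ratio per unit depth was 56.3-fold (exact 95% interval 9.87 to 2247) in siNC cells, 37.2-fold (exact 95% interval 14.2 to 138) with pair 1 and 43.2-fold (exact 95% interval 16.6 to 160.4) with pair 2. These intervals compare 1 library with 1 and cover counting error only, not the spread between libraries. In each condition the treated library held more Wnt11 reads. Tcf7 was at 0.925 FPKM in the siNC library, 2.24 with pair 1 and 1.87 with pair 2 untreated, and at 2.70 FPKM in the siNC library, 4.65 with pair 1 and 4.06 with pair 2 with TGF-β (log2 difference 0.85 ± 0.15, adjusted p = 0.0468), a call that was lost with pseudocounts of 0.1 and 5 FPKM, without a filter and with a trended prior (adjusted p up to 0.104). Wnt9a, which was not called in untransfected EpRas cells, was at 8.34 FPKM in the siNC library, 9.89 with pair 1 and 11.5 with pair 2 untreated, and at 20.9 FPKM in the siNC library, 16.9 with pair 1 and 20.2 with pair 2 with TGF-β. All 3 treated libraries lay above the 3 untreated ones, with a ratio of 2.51, 1.71 and 1.75, but the effect missed the threshold (log2 difference 0.90 ± 0.18, adjusted p = 0.068), and its difference from untransfected EpRas cells was not tested. Wnt10a was lower with TGF-β in each of the 3 conditions, at a ratio of 0.565, 0.627 and 0.507 (log2 difference -0.74 ± 0.29, adjusted p = 0.265). Of the 20 members, 10 were higher with TGF-β in all 3 conditions, 5 lower in all 3 and 5 mixed, beside 22.5% of all genes higher and 20.9% lower in all 3. Markers called in this fit were the macrophage marker Csf1r, higher (log2 difference 1.33 ± 0.19, adjusted p = 0.0264), Fn1, higher (log2 difference 1.98 ± 0.28, adjusted p = 0.0274), and of 13 epithelial markers Cldn7, lower (log2 difference -1.28 ± 0.19, adjusted p = 0.0298), and their part in these results was not tested.

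No member passed the test of the knockdown, and Wnt5a with TGF-β was the member past 2-fold with both pairs. Over both states of treatment 0 of the 20 members were higher and 0 lower by limma, beside 0.487% and 1.10% of all genes, with 3 members and 21.7% of all genes at an unadjusted p under 0.05. By the rule that both pairs differ from siNC by at least 2-fold in the same direction on log2(FPKM + 1), 0 members passed without TGF-β, beside 1.47% of genes higher and 2.53% lower. The added 1 FPKM bears on that count, since as plain FPKM ratios to siNC Tcf7 (2.42 and 2.02) and Wnt11 (2.94 and 3.14, on the 1, 4 and 4 reads given above) were past 2-fold with both pairs untreated. With TGF-β 1 member, Wnt5a, was higher and 0 were lower, beside 1.12% and 2.52% of genes. With TGF-β, Wnt5a was at 1.77 FPKM in the siNC library, 5.03 with pair 1 and 8.70 with pair 2, a log2 difference from siNC of 1.12 for pair 1 and 1.81 for pair 2. Without TGF-β it was at 2.43 FPKM in the siNC library, 2.10 with pair 1 and 3.59 with pair 2, a log2 difference of -0.15 for pair 1 and 0.42 for pair 2. In siNC cells Wnt5a was thus lower with TGF-β than without, at a ratio of 0.728, and with both pairs it was higher, at ratios of 2.39 and 2.42. In untransfected EpRas cells, as given above, the treated libraries were the higher ones. In a limma fit added after seeing these values, with a knockdown-by-TGF-β term over the 6 siRNA libraries, the change of Wnt5a with TGF-β differed between the pairs and siNC by 1.33 ± 0.58 log2 units and was not called (adjusted p = 0.95), on 2 residual degrees of freedom.

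Marker genes of other cell types also differed in the knockdown. Of 5 tested fibroblast markers 1, the growth factor receptor gene Pdgfrb, was called higher (log2 difference 1.95 ± 0.23, adjusted p = 0.0262), at 1.09 FPKM in the siNC library, 5.25 with pair 1 and 9.35 with pair 2 untreated and 2.09 FPKM in the siNC library, 10.1 with pair 1 and 12.02 with pair 2 with TGF-β. With TGF-β Col1a1 was at 2.44 FPKM in the siNC library, 27.7 with pair 1 and 5.399 with pair 2, and the smooth muscle actin gene Acta2 at 0.490 FPKM in the siNC library, 202 with pair 1 and 13.2 with pair 2. Untreated, the epithelial marker Krt14 was at 109 FPKM in the siNC library, 237 with pair 1 and 365 with pair 2. The endothelial marker Cdh5 with TGF-β was at 1.80 FPKM in the siNC library, through which it passed the minimum, 0.0774 with pair 1 and 0.173 with pair 2. The summed level of the fibroblast markers ran from 5.50 to 25.7 FPKM over the untreated and from 11.7 to 43.9 FPKM over the treated siRNA libraries, with Lum, Thy1, Dpt and Fap at 0. The part of these markers in the values of Wnt5a and the other members was not tested.

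Wnt10a was higher mainly with pair 1, at 9.03 FPKM in the siNC library, 19.8 with pair 1 and 12.1 with pair 2 untreated and 5.10 FPKM in the siNC library, 12.4 with pair 1 and 6.13 with pair 2 with TGF-β (log2 differences of 1.05 for pair 1 and 0.38 for pair 2, and of 1.14 for pair 1 and 0.22 for pair 2 with TGF-β). The effect of pair 1 was past 2-fold and that of pair 2 was not, in either state. Wnt11 with TGF-β differed from siNC by 0.77 for pair 1 and 1.04 for pair 2, so that only pair 2 was past 2-fold. Tcf7 was higher with both pairs in both states, with log2 differences of 0.75 for pair 1 and 0.58 for pair 2 untreated and 0.61 for pair 1 and 0.45 for pair 2 with TGF-β, and Sfrp1 was lower with both, with log2 differences of -0.71 for pair 1 and -0.47 for pair 2 untreated and -0.27 for pair 1 and -0.78 for pair 2 with TGF-β, on 62, 35 and 46 reads untreated and 58, 31 and 8 reads with TGF-β for siNC, pair 1 and pair 2. Wnt7b, the main ligand, was at 149 FPKM in the siNC library, 195 with pair 1 and 213 with pair 2 untreated and 167 FPKM in the siNC library, 213 with pair 1 and 230.0 with pair 2 with TGF-β. Both pairs lay above siNC by less than 2-fold. Untreated, both pairs were above siNC for 10 members and below it for 5, beside 37.6% and 37.8% of all genes, and with TGF-β for 10 and 9, beside 37.9% and 36.4%. The pairs were furthest apart for Wnt5b with TGF-β, at log2 differences of -0.95 for pair 1 and 0.06 for pair 2, on 26, 0 and 20 reads for siNC, pair 1 and pair 2. In each state both pairs were compared with the same siNC library.

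**Figure D5:**
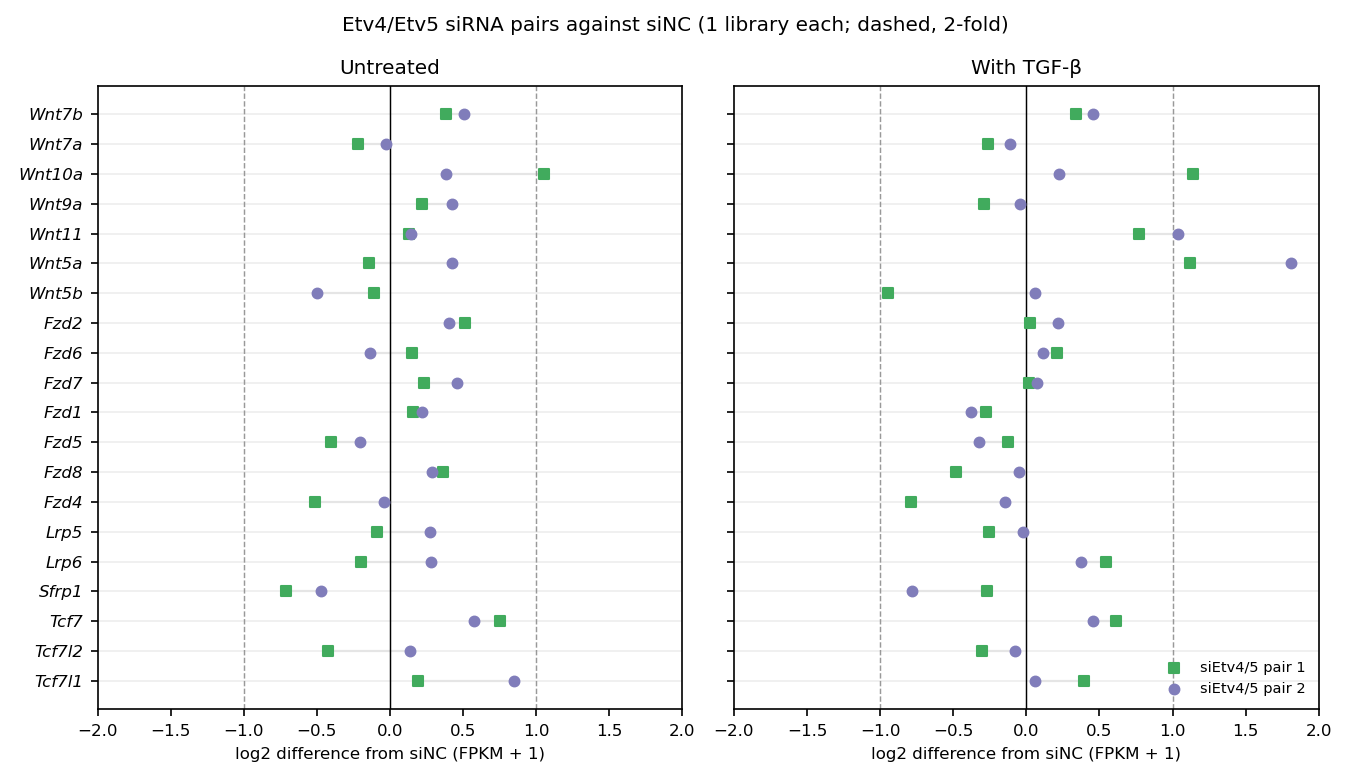
Log2 difference of FPKM + 1 between each siRNA pair against Etv4 and Etv5 and siNC for the 20 members, untreated on the left and with TGF-β on the right (1 library a condition, dashed lines at 2-fold, grey lines joining the pairs). Wnt5a with TGF-β is the member with both pairs past a 2-fold difference, the pairs are furthest apart for Wnt5b with TGF-β, and for Wnt10a only pair 1 is past 2-fold in either state.

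Other genes of the Wnt pathway, on lists that hold none of the members, were counted in the same fits. Of 10 tested receptors and planar polarity genes, 4 were lower and 0 higher in untreated EpRas cells, namely Prickle1 (log2 difference -1.70 ± 0.19, adjusted p = 0.00126), Celsr1 (log2 difference -1.07 ± 0.17, adjusted p = 0.00506), Vangl2 and Celsr2, beside 9.45% and 8.37% of all genes. With TGF-β 5 were lower and 0 higher, beside 12.8% and 8.98%. Celsr2 was at 4.07 and 4.06 FPKM in untreated and 4.19 and 3.84 FPKM in treated EpH4 cells, against 0.329 and 0.221 and 0.233 and 0.225 FPKM in EpRas cells. It passed the minimum only through EpH4 cells, where it was high, so its place in these counts is a description. In EpH4 cells 3 of these 10 rose with TGF-β (Prickle1, Celsr1 and Daam1) and 0 fell, beside 6.05% and 2.80% of all genes, and in EpRas cells 0 were called in either direction. Celsr1 went from 12.3 and 14.4 to 24.8 and 21.4 FPKM with TGF-β in EpH4 cells and from 5.87 and 5.76 to 2.80 and 3.36 FPKM in untransfected EpRas cells. In the siRNA libraries of EpRas cells Celsr1 did not fall with TGF-β. It was at 6.13 without and 7.13 FPKM with TGF-β under siNC, 11.6 and 11.6 under pair 1, and 7.28 and 8.85 under pair 2. It was the 1 gene of this list whose response differed between the lines by a test of the difference (log2 difference -1.49 ± 0.23, adjusted p = 0.0423), beside 0.753% of all genes. Prickle1 was at 6.05 and 6.47 FPKM in untreated EpH4, 13.0 and 11.8 in treated EpH4, 0.936 and 1.59 in untreated EpRas and 0.613 and 0.920 in treated EpRas cells. The median log2 difference of this list was -0.35 between the untreated lines and -0.61 with TGF-β, against 0 and -0.00356 over all genes.

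A further list held 8 tested genes of ligand secretion (Porcn and Wls), the R-spondins Rspo1 and Rspo3, which strengthen Wnt signals at the receptor, their receptors Lgr4 and Lgr6, and the surface regulators Znrf3 and Gpc4. With TGF-β in EpH4 cells 2 of these, both R-spondins, were called higher and 0 lower, beside the same 6.05% and 2.80% of all genes. Among the 8 untransfected libraries both reached 1 FPKM only in the treated EpH4 ones, through which they passed the minimum there, so their calls are given as a description. Rspo1 was listed at 0 in both untreated libraries and stood at 2.31 and 2.53 FPKM with TGF-β, and Rspo3 went from 0.310 and 0.572 to 2.15 and 2.02 FPKM. In treated EpRas cells Rspo1 was at 0.243 and 0.469 FPKM and Rspo3 was listed at 0. Wls, the carrier that takes Wnt proteins to the cell surface, was lower in EpRas than EpH4 cells with TGF-β (log2 difference -0.89 ± 0.24, adjusted p = 0.0377), and Porcn, the enzyme that adds their lipid, was higher in untreated EpRas cells (log2 difference 0.77 ± 0.20, adjusted p = 0.0369).

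Of 3 tested secreted antagonists outside the Sfrp and Dkk families, Notum, an enzyme that removes the lipid from Wnt proteins, was higher in untreated EpRas cells, at 0.281 and 0.276 FPKM in EpH4 and 4.46 and 4.88 FPKM in EpRas cells (log2 difference 2.15 ± 0.15, adjusted p = 0.000123), and 0 were lower, beside 8.37% and 9.45% of all genes. With TGF-β Notum was again higher in EpRas cells (log2 difference 0.80 ± 0.15, adjusted p = 0.00712) and Kremen1, a receptor of Dkk proteins, lower (log2 difference -0.69 ± 0.15, adjusted p = 0.0162), beside 8.98% and 12.8%. In the untransfected libraries Notum reached 1 FPKM only in untreated EpRas cells, where it was high, and its calls are read with that limit. It fell with TGF-β in EpRas cells to 0.655 and 0.843 FPKM (log2 difference -1.70 ± 0.15, adjusted p = 0.00162). Notum is also on the list of transcriptional targets, of which 11 of 24 were tested. Of these 2 were higher in untreated EpRas cells (Notum and Cd44) and 1 lower (Id2), beside 8.37% and 9.45% of all genes, and 4 were higher and 1 lower with TGF-β, beside 8.98% and 12.8%. With TGF-β 1 target fell in EpH4 cells and 2 fell in EpRas cells, beside 2.80% and 1.79% of all genes, Id2 being also a direct target of the BMP pathway (log2 difference -2.06 ± 0.25, adjusted p = 0.00526 in EpRas cells). Of 24 tested genes of the intracellular cascade, 1 was higher and 1 lower between the untreated lines, beside 8.37% and 9.45% of all genes, the feedback inhibitor Nkd2 being the lower one and Dvl1 the higher one, and 0 of 12 β-catenin cofactors were called in that comparison. With TGF-β 2 of the 12 were lower in EpRas cells, Ctbp1 (log2 difference -0.91 ± 0.24, adjusted p = 0.0306) and Bcl9l (log2 difference -0.76 ± 0.22, adjusted p = 0.0429), and 0 were higher, beside 12.8% and 8.98% of all genes. Nkd2 was also the 1 cascade gene called between the lines with TGF-β, beside 12.8% of all genes lower. It was at 2.48 and 2.87 FPKM in untreated and 3.05 and 2.89 FPKM in treated EpH4 cells, against 0.185 and 0.597 and 0.657 and 0.592 FPKM in EpRas cells, and as it passed the minimum only through EpH4 cells, where it was high, both calls are given as a description. The kinase gene Csnk1e was the 1 called for TGF-β in EpH4 cells (log2 difference 0.77 ± 0.16, adjusted p = 0.024), beside 6.05% of all genes higher, and over the siRNA libraries (log2 difference 1.06 ± 0.15, adjusted p = 0.029), beside 1.29%. By limma 0 genes of these 6 lists were called in the knockdown in either direction, beside 0.487% of all genes higher and 1.10% lower.

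By the 2-fold rule for both pairs, 0 genes of these lists were higher in either state. Lower were 1 gene untreated, beside 2.53% of all genes, and 2 with TGF-β, beside 2.52%. Untreated this was Cd44, a cell surface receptor for hyaluronan, at 128 FPKM in the siNC library, 41.2 with pair 1 and 58.6 with pair 2. With TGF-β these were Notum, at 2.94 FPKM in the siNC library, 0.322 with pair 1 and 0.719 with pair 2, and Rspo1, at 1.28 FPKM in the siNC library, 0 with pair 1 and 0.0667 with pair 2. All 3 rest on 1 library a condition, and among the 6 siRNA libraries Rspo1 reached 1 FPKM only in the siNC library with TGF-β, through which it passed the minimum there.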

How the data were processed

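RNA-seq of untransfected EpH4 and EpRas cells (8 libraries) and siRNA-transfected EpRas cells (6 libraries) was used. Per the submitters' processing notes, reads were aligned to mm10 with TopHat2 2.0.11 and Bowtie2 2.2.2.2, and the authors calculated FPKM with Cuffdiff of Cufflinks 2.2.0; the deposited FPKM are length-scaled and already normalized between libraries, so a few highly expressed genes can shift all others. The number of per-sample columns left unused was 0. Genes without an OK status (3 and 2) were dropped, and genes with a maximum of at least 1 FPKM were tested (11683 and 11509). The tests were those of limma 3.58.1 (R 4.3.3) on log2(FPKM + 1), a scale that understates changes of low genes, with 1 mean per group over all 8 untransfected libraries, no block, and two-sided p-values with the Benjamini-Hochberg adjustment across every gene tested. For siRNA libraries a term for knockdown and 1 for TGF-β were fitted. On simulated tables the same fits called 100 of 100 genes changed by 2 log2 units and 44 of 100 changed by 1 for TGF-β in EpRas cells, but 82 and 4 of 100 for the difference in effect between the lines. The changed genes there had a mean log2(FPKM + 1) above 2, and the spread was assumed and not estimated from these libraries. The rates thus do not cover members below that level. Reads were recovered from the steps between low FPKM values, within 0.02 of whole numbers, and intervals of read ratios are exact binomial (Clopper-Pearson, 95%). Sequences come from RefSeq on GRCm38.p6, and windows were matched by symbol.

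Named genes are all followed members, with statistics for those called or at 5 FPKM or more, and at most 4 called genes for each other list, those with the largest difference. The members and lists were chosen with earlier results of these data known. Alternatives were other pseudocounts, filters, scaling and prior variance, a replicate block, leaving out each library, fitting only the groups compared, and the Tukey-Kramer test on FPKM. Other calculations used scipy 1.17.1, pandas 2.3.3 and numpy 2.4.6 under Python 3.11.15.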

Additional observations from a re-analysis of the deposited data

Results flagged for a closer look

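The response of Wnt9a to TGF-β differed between the lines by a test of the difference itself (limma, adjusted p = 0.00502), with a log2 difference of -2.34 between the effect in EpRas and that in EpH4 cells. The range of the adjusted p over the alternatives was 0.0024 to 0.0623, the highest values being those without 1 of the treated EpH4 libraries. Treated EpH4 libraries were at 47.5 and 49.1 FPKM and the other 6 untransfected libraries between 8.63 and 9.09 FPKM. In the separately processed siRNA libraries of EpRas cells Wnt9a was at 8.34 to 11.5 FPKM untreated and at 16.9 to 20.9 FPKM with TGF-β. That effect of TGF-β missed the threshold, as given above, and its difference from untransfected EpRas cells was not tested.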

How the results depend on the processing

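All 451 values of the 30 calls of members under the limma alternatives kept their direction, and 350 of them kept an adjusted p under 0.05, with 11 calls past it under every one of these. Counts of members called moved by over 1.5 times as follows. Between the untreated lines 8 members were called, and 5 with a pseudocount of 5, 4 with a minimum of 5 FPKM, 4 with the Tukey-Kramer test and 3 to 9 without 1 library. For TGF-β in EpH4 cells 7 were called, and 2 to 7 without 1 library. For TGF-β in EpRas cells 3 were called, and 0 with only the groups compared, 5 with the Tukey-Kramer test and 1 to 2 without 1 library. For the difference in effect 1 was called, and 3 with a pseudocount of 5 (Fzd6, Wnt11 and Wnt9a) and 0 to 1 without 1 library. For TGF-β over the siRNA libraries 2 were called, and 1 with pseudocounts of 0.1 and 5, a minimum of 5 FPKM, no filter or a trended prior. With a pseudocount of 5, 0 members were past 2-fold in the knockdown with TGF-β in place of 1. The Tukey-Kramer test is not adjusted across genes. Where limma did not, it called Wnt5a and Fzd4 for TGF-β in EpRas cells, Wnt7a, Wnt10a and Fzd8 for TGF-β in EpH4 cells and Fzd8 between the treated lines, and it lost Wnt11, Fzd7, Tcf7l1 and Tcf7l2 between the untreated lines and Tcf7l2 in EpH4 cells. With TGF-β, 9 members differed between the lines and 7 to 10 without 1 library. The cause of these moves was not tested, except that a higher minimum tests fewer genes.

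With the replicate number as a block, 6, 8, 4, 1 and 1 members were called in the comparisons of untreated lines, lines with TGF-β, TGF-β in EpH4, TGF-β in EpRas and the difference in effect, in place of 8, 9, 7, 3 and 1. The deviations of libraries with the same number correlated at -0.33 to 0.0764 between groups, so the numbers were not taken as pairs. Some members at low FPKM, such as Wnt5b and Tcf7l1, rest on few reads, and a 2-fold difference in effect between the lines was seldom recovered in simulated tables of this size.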

Other observations

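Below the 1 FPKM minimum, Fzd3, a receptor known for axon guidance and hair patterning, differed between the lines. It was at 0.570 and 0.421 FPKM in untreated and 0.357 and 0.443 FPKM in treated EpH4 cells, 42, 42, 19 and 35 reads, and at most 0.0120 FPKM or 1 read in the 4 untransfected EpRas libraries. In the fit with no filter on low values it was lower in EpRas cells untreated (log2 difference -0.57 ± 0.09, limma adjusted p = 0.013) and with TGF-β (-0.48 ± 0.09, adjusted p = 0.0176). In the siRNA libraries it lay between 0 and 0.101 FPKM. Wnt1, the founding member of the family, was the other member called in that fit, at 0 and 0.0693 FPKM in untreated and 0.640 and 0.824 FPKM in treated EpRas cells, which is 0 and 1 against 7 and 7 reads (adjusted p = 0.0194). In EpH4 cells Wnt1 was listed at 0 in both untreated libraries and stood at 0.326 and 0.365 FPKM with TGF-β (3 and 5 reads), and it was higher in EpRas than in EpH4 cells with TGF-β (log2 difference 0.36 ± 0.09, adjusted p = 0.0493). Both genes were chosen after their values were seen.

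The ligand genes come in neighbouring pairs on 4 stretches of the genome, and in each pair at most 1 gene was followed. Wnt10a lies 6193 bases from Wnt6 on chromosome 1 and reached 33.9 FPKM while Wnt6 reached 0.150 FPKM. Wnt9a lies 16175 bases from Wnt3a on chromosome 11 and reached 49.1 FPKM while Wnt3a was listed at 0. The pairs of Wnt3 and Wnt9b on chromosome 11 and of Wnt1 and Wnt10b on chromosome 15 stayed below 1 FPKM.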
